A study of Mus musculus with 30 samples.

Results

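The comparison described here is Kdm5c siRNA against a non-targeting siRNA, 48 h after transfection, in the mouse preadipocyte line 3T3-L1. It took the 10 libraries labelled day −1, 5 with Kdm5c siRNA and 5 with the non-targeting siRNA (scramble), of 30 libraries in the series. Each of the 12016 genes in the deposited count table was tested. 3T3-L1 is a fibroblast line of mouse embryo origin that can be driven to become fat cells. No genetic change is named for either group. A Dharmacon ON-TARGET siRNA pool against Kdm5c, or the non-targeting ON-TARGET control, was given at 50 nM with Lipofectamine RNAiMAX while the cells were sub-confluent, on day −3. The cells of all groups were kept in a preadipocyte medium. The other 20 libraries are of the same siRNAs on day −2 and day 0, 24 and 72 h after transfection. Since Kdm5c siRNA was 1 pool in 1 cell line, the loss of the transcript and any other action of the reagent cannot be told apart. The labels do not say whether replicates were separate cultures, and if they were not, a p reflects technical spread alone.

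KDM5C is an X-linked enzyme that removes methyl groups from lysine 4 of histone H3, a mark of active promoters and enhancers. It is found with repressor complexes at promoters and at enhancers, and in neurons it is known for keeping germline genes silent. Preadipocytes kept in culture grow to confluence, stop dividing and only then respond to the hormones that turn them into adipocytes. Differentiation lowers genes of the actin cytoskeleton and raises those of lipid handling.

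The 10 libraries held 25217905 to 33725717 reads, and the count table held at least 99.76% of them in each. Levels are given in CPM, a gene's reads per 1000000 reads of its library, and are not corrected for gene length. The cells carried the markers of their label. All 12 preadipocyte and fibroblast markers were in the count table and summed to between 36324 and 39542 CPM in the scramble libraries and between 38309 and 40429 CPM in the Kdm5c siRNA libraries. Of the 12, Ly6a, Vim, Col1a1 and Col1a2 rose, Pdgfra, Pdgfrb, Dlk1 and Prrx1 fell and 4 were not called. The call of Vim was lost without Kdm5c siRNA replicate 4 or 5 or scramble replicate 1 or 5, and that of Col1a2 without Kdm5c siRNA replicate 3 or 5 or scramble replicate 4 or 5. Pdgfra, Pdgfrb, Dlk1 and Vim were not called without scramble replicates 1, 2 and 3 together. Col1a1 and Col1a2 were not called without scramble replicates 4 and 5 together. Ly6a and Prrx1 kept their calls in both of these fits. None of 7 markers of mature adipocytes was in that table, and their sum was at most 0.357 CPM in any library; Cfd was at 0 in all 10. Macrophage markers summed to 3.72 to 4.58 CPM in scramble and 4.49 to 5.33 CPM with Kdm5c siRNA, with Adgre1, Itgam and Tyrobp at 0. Endothelial markers summed to 2.35 to 2.97 and 2.89 to 3.35 CPM with Tie1 at 0, skeletal muscle markers to 3.70 to 4.58 and 3.17 to 4.17 CPM with Myod1 and Ckm at 0, and epithelial markers to at most 0.73 CPM with Epcam at 0. Among 3 measured endothelial markers there was a rise in 2, Kdr by 0.62 (not called without scramble replicate 2, or without replicates 1, 2 and 3) and Flt1 by 0.23 on the log2 scale, and neither of the 2 macrophage and 2 muscle markers there was called. Their part in the results was not tested.

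Kdm5c itself, the targeted gene, was at 186.6, 193.8, 188.9, 187.0 and 188.1 CPM in the scramble libraries. It was at 35.6, 37.9, 39.3, 35.4 and 29.9 CPM in the Kdm5c siRNA libraries, so that 18.9% of the scramble mean was left (log2 change −2.41, SE 0.04, adjusted p = 1.5e-32; here and below the log2 change is the log2 of the fold change of Kdm5c siRNA over scramble; edgeR quasi-likelihood test, adjusted by Benjamini-Hochberg over all genes). The groups did not overlap, and the two-sided exact permutation p over the 10 libraries was 0.00794, the smallest that 5 against 5 can give. The cells kept transcripts of the related demethylases. Kdm5a rose from 128.2 ± 1.69 to 137.4 ± 2.89 CPM (SD, n = 5 per group; log2 change 0.10, SE 0.02, adjusted p = 7.18e-04), while Kdm5b, at 115.5 ± 4.1 and 116.7 ± 2.07 CPM, did not pass the test. Kdm5a, Kdm5b and Kdm5c reads together went from 432.6 ± 5.46 to 289.7 ± 7.63 CPM, 67.0% of the scramble sum. Kdm1a, an H3 lysine 4 demethylase of another family, rose from 106.0 ± 1.88 to 113.5 ± 0.634 CPM (log2 change 0.10, SE 0.02, adjusted p = 2.99e-04), and Kdm1b (22.3 and 21.5 CPM) was not called. Kdm5d, the Y-linked relative, was at no more than 0.0357 CPM in any of the 10 libraries.

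The 5 scramble libraries did not form an even group, and this bears on what follows. A position was computed for each library along the change that scramble cells made from day −2 (0%) to day 0 (100%), a line that no day −1 library entered. Scramble replicates 1, 2 and 3 stood at 57.1, 56.2 and 56.6%, and replicates 4 and 5 at 51.1 and 51.4%. The Kdm5c siRNA libraries stood at 46.9, 47.1, 50.3, 47.7 and 43.7%, below every scramble library, with replicate 3 within 1 percentage point of scramble replicate 4. Among the 10 libraries the first principal component, 46.0% of the variance, separated the siRNAs. The second, 13.6%, placed scramble replicates 4 and 5 on the other side from replicates 1, 2 and 3. Of 11383 genes averaging at least 2 CPM, scramble 4 and 5 were both above scramble 1, 2 and 3 in 2480 and both below in 2289. Of the first 2480, 1835 fell in scramble cells from day −2 to day 0, and of the other 2289, 1633 rose. The overall spread lay within the range of the other groups. The common biological coefficient of variation was 0.0384 among the day −1 scramble libraries, 0.0298 among those with Kdm5c siRNA, and 0.0325 to 0.0443 in the other 4 groups. The 0.0443, of day −2 Kdm5c siRNA, was 0.0271 without its replicate 2, and day 0 scramble was at 0.0388. Counts of list members that moved by over 1.5 times without scramble replicates 1, 2 and 3 are given again without them.

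**Figure D1:**
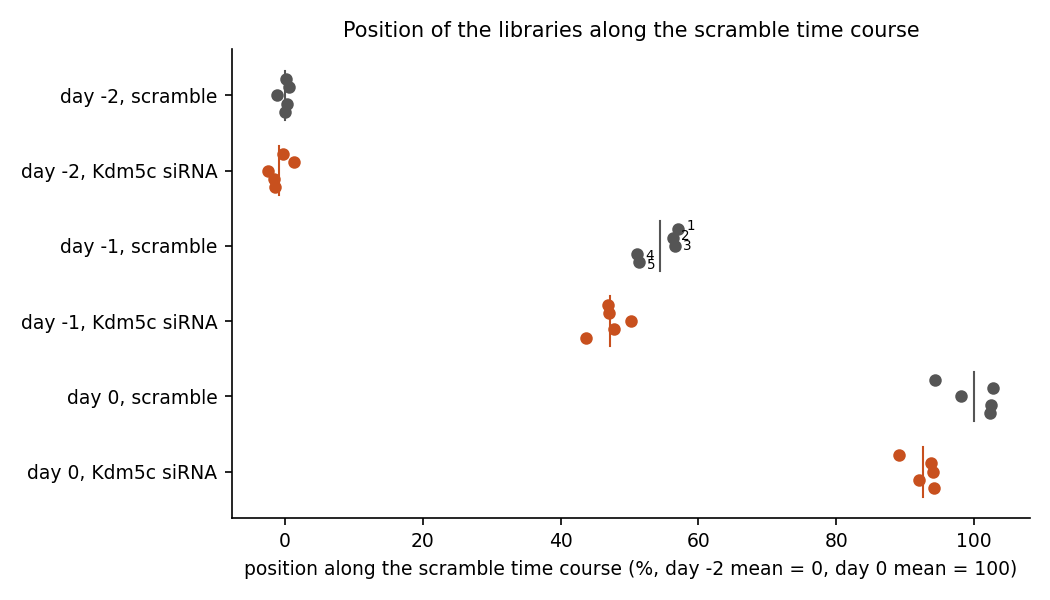
Position of each of the 30 libraries (points) along the change of the scramble cells from day −2 (0%) to day 0 (100%), by group, with vertical lines at group means and the day −1 scramble replicates numbered. Scramble replicates 1, 2 and 3 lie at 56.2 to 57.1%, replicates 4 and 5 at 51.1 and 51.4%, and the day −1 Kdm5c siRNA libraries at 43.7 to 50.3%.

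The response at 48 h was broad and shallow. Of all genes tested, 4268 (35.5%) were called at an adjusted p under 0.05, 2254 of them higher (18.8%) and 2014 lower (16.8%). The groups' libraries did not overlap in 2674 genes (22.3%), 1349 higher and 1325 lower. Among called genes the median size of the log2 change was 0.16, and 3253 of the called genes (76.2%) changed by less than 1.2-fold. Changes past 1.5-fold were called in 98 genes that rose (0.816% of all tested) and 50 that fell (0.416%), and past 2-fold in 12 and 8. Of these 148 genes, 88 were among the 2404 with the lowest level, at most 7.86 CPM, and 5 among the 2403 with the highest, over 98.6 CPM. Calls of any size were more frequent at high levels. Among the 2404 lowest genes 10.9% were called higher and 9.19% lower, and among the 2403 highest 24.3 and 24.0%. The shares over all genes, given beside the lists below, are not matched for level. Without scramble replicates 1, 2 and 3, 1271 genes were called higher and 1284 lower, and 2286 of the 4268 calls (53.6%) were kept. Of the 4268, 4242 kept their sign. This fit keeps only replicates 4 and 5 as day −1 scramble, so calls can be lost through fewer libraries, here and below. Of the 148 genes past 1.5-fold, 132 kept their call and all 148 their direction. Leaving out scramble replicates 4 and 5 instead gave 2334 genes called higher and 1977 lower. In that fit 3667 of the 4268 calls were kept and 644 calls were new.

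**Figure D2:**
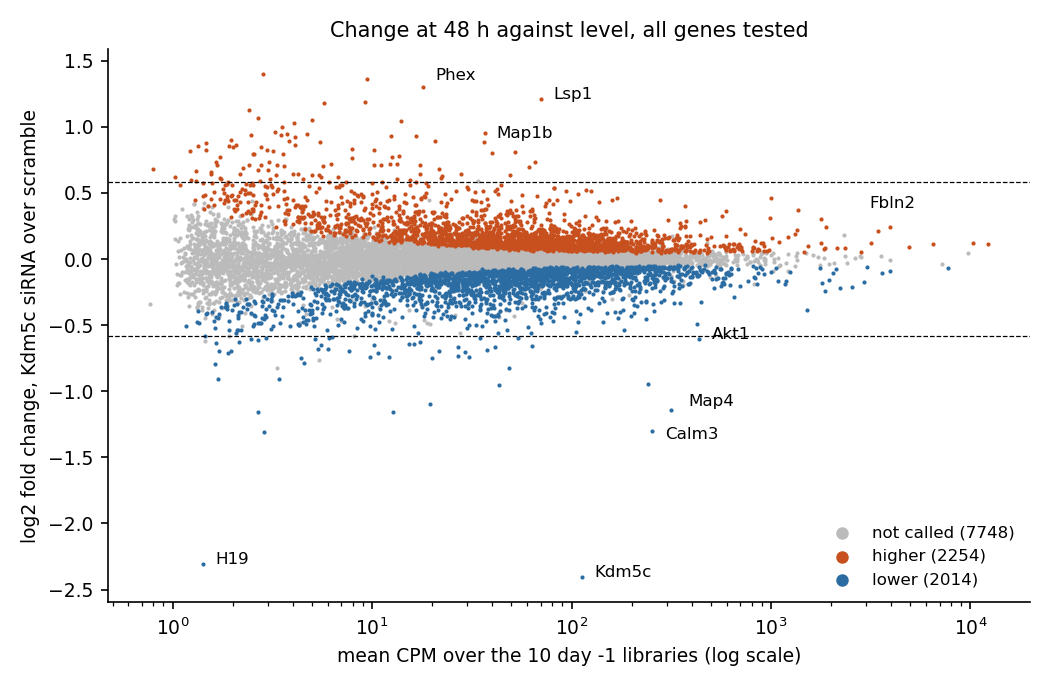
Log2 fold change of Kdm5c siRNA over scramble on day −1 (vertical) against the mean CPM over the 10 libraries (horizontal, log scale) for all tested genes, coloured by call, with dashed lines at 1.5-fold. The 2254 genes called higher and 2014 called lower lie mostly close to 0, and Kdm5c and H19 lie lowest.

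The genes that rose most included regulators of the actin cytoskeleton, a lipid phosphatase and several surface proteins, most of them at low levels in scramble cells. Lsp1, which encodes an actin-binding protein first described in leukocytes, was at 41.6, 42.8, 44.7, 41.3 and 40.4 CPM in the scramble libraries and at 101.4, 91.5, 98.2, 101.2 and 96 CPM with Kdm5c siRNA (log2 change 1.21, SE 0.03, adjusted p = 6.61e-29). It had the smallest adjusted p of the genes that rose most, and each knockdown library stood at over 2 times every scramble library. Ankrd1, a muscle ankyrin repeat gene induced by stretch and by YAP, was at 4.29, 5.12, 4.44, 6.7 and 6.03 CPM in scramble and at 14.6, 13.5, 11.6, 13.5 and 15.1 CPM with Kdm5c siRNA (log2 change 1.36, SE 0.09, adjusted p = 7.32e-14). Phex, a membrane endopeptidase of bone and teeth on chromosome X, was at 10.3, 9.04, 10.7, 11.5 and 10.4 CPM in scramble and 24.9, 27.4, 25.4, 24.5 and 25.7 CPM with Kdm5c siRNA. In all 3 genes the groups were far apart and the Kdm5c siRNA libraries close together.

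Creb5, a partner of Jun proteins that binds CRE and AP-1 sites, went from 3.29, 3.54, 2.69, 3.88 and 4.12 CPM to 8.01, 8.01, 8.94, 7.82 and 6.94 CPM (log2 change 1.18, SE 0.09, adjusted p = 1.83e-13). Lpin3, a phosphatidate phosphatase of the lipin family, went from 5.29, 5.92, 5.08, 5.93 and 5.85 CPM to 13.3, 12.8, 13.6, 12.2 and 12.2 CPM (log2 change 1.19, SE 0.07, adjusted p = 1.17e-17), while its relative Lpin2 fell by 0.16 on the log2 scale. Mcam, the adhesion molecule CD146, rose from 9.18 ± 0.471 to 18.9 ± 1.58 CPM, the calcium-activated chloride channel gene Ano1 from 2.68 ± 0.426 to 5.46 ± 0.544 CPM, and Olr1, the receptor for oxidised LDL, from 3.21 ± 0.369 to 6.17 ± 0.175 CPM (SD, n = 5 each). Their log2 changes were 1.04, 1.03 and 0.94. Siglecg, a sialic acid receptor of B cells, rose from 3.27 ± 0.283 to 6.77 ± 0.381 CPM (log2 change 1.05, SE 0.08, adjusted p = 3.47e-14). Tbkbp1, an adaptor of the kinase TBK1, rose from 2.35 ± 0.53 to 4.7 ± 0.396 CPM (log2 change 1.00). Actg2, the smooth muscle gamma actin gene, rose from 25.1 ± 2.73 to 48.6 ± 4.48 CPM (log2 change 0.95, SE 0.06, adjusted p = 1.02e-13), and Loxl2, a collagen crosslinking oxidase, from 1.69 ± 0.291 to 3.26 ± 0.498 CPM (log2 change 0.94). The remaining genes of this set, Hmgcll1, Glipr1 and Fjx1, had scramble means of 1.51 to 1.74 CPM and log2 changes of 1.07 to 1.4. Lsp1, Phex, Map4, Nrn1 and Stat5a are among the named genes that overlap another annotated gene, and the sources used here do not say how such reads were counted. All 15 stayed called, and higher, without scramble replicates 1, 2 and 3.

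The promoters of the genes past 1.5-fold had fewer CpG dinucleotides at the median than those of all tested genes. Below, 4 of these promoters are printed as examples only. RefSeq (GRCm38.p6) gave 11605 promoters, 250 bases before to 50 after each start, for 9075 of the tested genes. Their median number of CpG dinucleotides was 21. It was also 21 for the promoters of all called genes that rose and of all that fell. The 101 promoters of 71 genes past 1.5-fold higher had a median of 9 CpG, and 46 promoters of 35 genes past 1.5-fold lower had 16. An AP-1 motif (TGANTCA, either strand) lay in 14.9% of the first and 6.52% of the second, against 4.90% of promoters of all tested genes. For the TEAD motif GGAATG the shares were 16.8% and 10.9% against 11.9%, for the E-box CACGTG 8.91% and 13% against 10.1%, and for the CRE motif TGACGTCA 2.97% and 2.17% against 3.07%. Over all 32851 promoters listed, of genes tested or not, the median was 7 CpG. In these, AP-1 lay in 7.81%, TEAD in 14.7%, the E-box in 7.15% and CRE in 1.79%. These shares are descriptions with no test, the genes past 1.5-fold are mostly of low level, and a gene can have several promoters of which the data do not say which was used. Below, capitals mark matches to any of the 4 motifs. Lpin3 (chr2:160880420-160880719, plus strand, the first of 2 listed; 6 CpG) holds 2 AP-1 motifs, 1 TEAD motif and 1 E-box, and its other promoter, with 19 CpG, holds no match. Creb5 (chr6:53573124-53573423, plus strand, the second of 2 listed; 4 CpG) holds 1 AP-1 and 1 TEAD motif, and its other promoter, with 31 CpG, 1 CRE motif and 1 E-box. For Lpin3 and Creb5 the promoter printed was picked after its matches were seen. Ankrd1 (chr19:36119795-36120094, minus strand; 7 CpG) holds 2 TEAD motifs. Calm3 (chr7:16923983-16924282, minus strand; 44 CpG), which fell, holds no match.
Lpin3: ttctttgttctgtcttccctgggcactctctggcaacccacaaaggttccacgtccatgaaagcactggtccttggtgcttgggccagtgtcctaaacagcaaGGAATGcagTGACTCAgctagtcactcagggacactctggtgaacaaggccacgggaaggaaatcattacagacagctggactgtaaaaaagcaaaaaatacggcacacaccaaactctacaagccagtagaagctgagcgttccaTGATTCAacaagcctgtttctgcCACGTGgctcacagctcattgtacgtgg
Creb5: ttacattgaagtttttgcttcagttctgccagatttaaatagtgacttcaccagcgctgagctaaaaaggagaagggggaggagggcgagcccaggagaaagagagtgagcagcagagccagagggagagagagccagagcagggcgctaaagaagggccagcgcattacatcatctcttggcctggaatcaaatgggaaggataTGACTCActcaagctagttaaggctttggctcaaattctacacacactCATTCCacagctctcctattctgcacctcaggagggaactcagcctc
Ankrd1: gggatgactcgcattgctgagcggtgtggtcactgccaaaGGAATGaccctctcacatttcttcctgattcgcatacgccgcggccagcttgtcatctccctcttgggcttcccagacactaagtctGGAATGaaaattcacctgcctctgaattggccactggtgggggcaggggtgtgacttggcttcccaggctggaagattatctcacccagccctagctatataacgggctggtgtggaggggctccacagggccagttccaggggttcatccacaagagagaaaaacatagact
Calm3: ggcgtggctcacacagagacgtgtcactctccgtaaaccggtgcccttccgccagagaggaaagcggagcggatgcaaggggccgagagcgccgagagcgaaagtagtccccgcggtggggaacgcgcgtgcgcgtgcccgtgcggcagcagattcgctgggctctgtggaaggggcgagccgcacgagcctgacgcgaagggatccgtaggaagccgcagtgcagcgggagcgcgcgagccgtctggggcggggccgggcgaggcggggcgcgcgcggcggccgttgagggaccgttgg

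The genes that fell most differed from those that rose in being, in part, abundant ones. Calm3, a gene for the calcium sensor calmodulin, was at 375.4, 359.1, 356.4, 352.2 and 362.5 CPM in scramble and 139.1, 157.1, 149.7, 151.0 and 134.4 CPM with Kdm5c siRNA (log2 change −1.30, SE 0.03, adjusted p = 4.33e-32). Calm2, another calmodulin gene, at 299.1 ± 3.13 and 300.8 ± 5.15 CPM, was not called. Map4, which stabilises microtubules, was at 444.2, 436.3, 435.6, 424.9 and 442.0 CPM in scramble and 193.4, 206.7, 204.4, 202.6 and 181.9 CPM with Kdm5c siRNA (log2 change −1.14, SE 0.02, adjusted p = 1.05e-33). Map1b, another microtubule-associated protein, rose from 25.7 ± 1.89 to 47.4 ± 1.79 CPM (log2 change 0.89, SE 0.04, adjusted p = 2.32e-20); of 22 measured tubulin and microtubule genes 4 rose and 7 fell (18.2 and 31.8%, against 18.8% higher and 16.8% lower over all genes), and 2 and 4 without scramble replicates 1, 2 and 3. Arf3, a small GTPase of the Golgi, was at 315.5, 315.5, 327.3, 322.7 and 317.9 CPM in scramble and 165.9, 175.0, 165.3, 169.4 and 152.6 CPM with Kdm5c siRNA (log2 change −0.95, SE 0.03, adjusted p = 1.89e-29). Its reads and those of the near-identical Arf1 together were 76.3% of the scramble sum. In Calm3, Map4 and Arf3 the libraries of each group lay close together and the groups far apart.

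Akt1, the kinase downstream of insulin and IGF receptors, was at 524.8, 525.8, 524.2, 533.0 and 527.9 CPM in scramble and 346.6, 354.6, 344.9, 354.1 and 327.8 CPM with Kdm5c siRNA (log2 change −0.61, SE 0.02, adjusted p = 7.13e-26). The 10 values fell into 2 tight groups. Of 60 measured ribosomal protein genes 20 fell and none rose (33.3% lower, against 16.8% lower and 18.8% higher over all genes). Their median log2 change was −0.05, against 0.00 over all genes, and 23 fell without scramble replicates 1, 2 and 3. Rpl27, of the large subunit, fell by 0.24. Nrn1, for neuritin, went from 56.8 ± 1.98 to 29.4 ± 1.11 CPM and Gem, a GTP-binding inhibitor of calcium channels, from 26.6 ± 1.37 to 12.4 ± 0.967 CPM (log2 changes −0.95 and −1.10). Mgp, an inhibitor of calcification, fell from 61.8 ± 8.69 to 34.9 ± 4.35 CPM (log2 change −0.82, SE 0.11, adjusted p = 9.68e-07). Ppargc1b, a coactivator of mitochondrial and lipid genes, fell from 4.46 ± 0.624 to 2.38 ± 0.306 CPM (log2 change −0.91, SE 0.13, adjusted p = 6.52e-07). Ppp1r3c, which targets a phosphatase to glycogen, fell from 38.3 ± 7.29 to 22.9 ± 3.24 CPM; its scramble replicates 4 and 5, at 29.3 and 31.6 CPM, lay closer to the highest knockdown library, 26.5 CPM, than to the other scramble libraries, and without replicates 1, 2 and 3 its log2 change went from −0.74 to −0.41. Tent5a, Serpinb1a and Plekha6 fell by 0.74 to 0.75.

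H19, an imprinted long non-coding RNA, had the largest fitted change after Kdm5c itself, but at a low level. It was at 2.72, 2.28, 2.82, 2.34 and 1.66 CPM in scramble and at 0.278, 0.451, 0.487, 0.678 and 0.445 CPM with Kdm5c siRNA (log2 change −2.31, SE 0.17, adjusted p = 3.76e-14), where 3 reads in a library of this depth are 0.089 to 0.119 CPM. By limma on log2 of CPM plus a pseudocount of 2, a scale that understates changes at low levels, it fell by 0.82, less than Calm3. Of 19 measured imprinted genes, 8 fell and 4 rose (42.1 and 21.1%, against 16.8% lower and 18.8% higher over all genes), and without scramble replicates 1, 2 and 3 these were 4 and 1; 2 rose without Kdm5c siRNA replicate 2. Among those named, Impact fell by 0.41, the growth factor receptor gene Igf2r by 0.21, and Sgce rose by 0.28 on the log2 scale. Apod, Agt and Ifi27l2a also had large decreases, but with wide spread. Apod was at 4.83, 3.05, 4.91, 4.42 and 3.07 CPM in scramble and 2.02, 1.71, 2.16, 1.52 and 0.919 CPM with Kdm5c siRNA, and Agt at 4.86, 3.26, 5.14, 2.85 and 2.47 and 1.19, 1.45, 2.09, 1.94 and 1.6 CPM. Apod and Agt were not called without scramble replicates 1, 2 and 3 (adjusted p = 0.0574 and 0.175), nor were Mx1, Col23a1 and Rgs2 (log2 changes from −0.78, −0.61 and −0.59 to −0.96, −0.35 and −0.14). Mx1, an antiviral GTPase, was also not called without scramble replicate 1 or 4 or Kdm5c siRNA replicate 4 or 5.

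**Figure D3:**
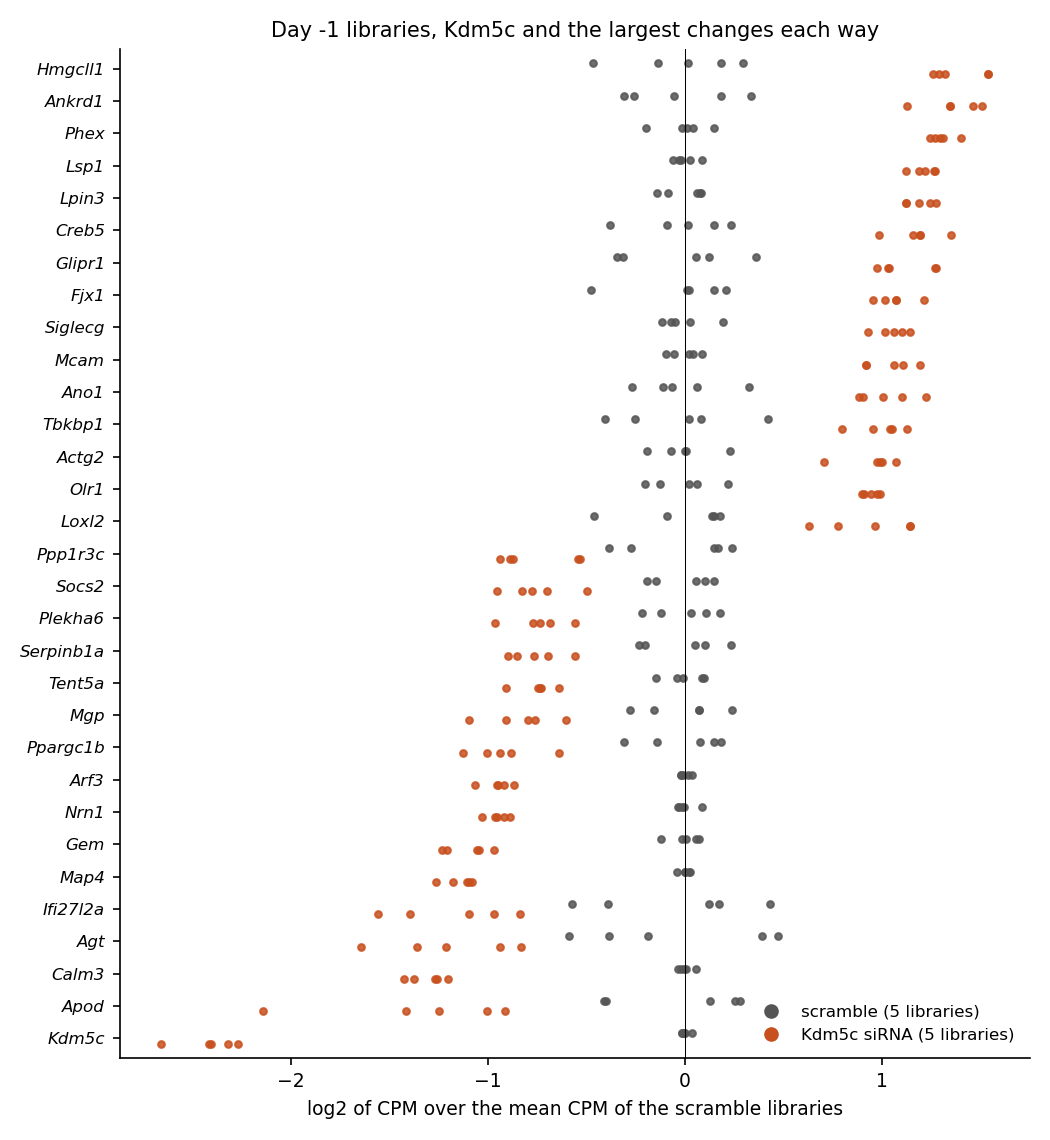
Log2 of each library's CPM over the mean CPM of the scramble libraries for Kdm5c and 15 genes of large change in either direction, 5 scramble libraries in grey and 5 Kdm5c siRNA libraries in orange. No orange point overlaps the grey points of its gene, and the grey points of Agt and Ifi27l2a are spread the most widely.

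Ranked by the difference in CPM rather than by fold, other genes came first. Among called genes whose groups did not overlap, the 8 that gained the most CPM were Fbln2, Actb, Flna, Sparc, Ccnd2, Hmga2, Bgn and Cxcl12. Col1a1 and Col1a2, also called higher, gained more CPM than any of them, but in both the groups overlapped. Fbln2, a basement membrane and elastic fibre protein, gained the most of these, with 3550.5, 3639.2, 3579.1, 3735.0 and 3657.5 CPM in scramble against 4286.2, 4175.4, 4232.7, 4299.9 and 4432.0 CPM with Kdm5c siRNA (log2 change 0.24, SE 0.02, adjusted p = 9.91e-13). Flna, for the actin crosslinker filamin A, went from 3178.3 ± 41.9 to 3675.9 ± 71.7 CPM, and Actb, for beta-actin, from 6207.6 ± 86.9 to 6720.0 ± 130.7 CPM. The log2 change of Actb was 0.12 (adjusted p = 1.06e-06 by the edgeR test). Actb is often used as a reference gene, but in scramble cells it fell by 0.96 on the log2 scale from day −2 to day 0. Ccnd2, a G1 cyclin, rose from 1186.0 ± 34.6 to 1533.3 ± 36.8 CPM (log2 change 0.37, SE 0.02, adjusted p = 2.5e-18), and Hmga2, a chromatin protein of proliferating mesenchyme, from 847.0 ± 48.9 to 1162.0 ± 48 CPM (log2 change 0.46, SE 0.06, adjusted p = 7.06e-07).

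Among called genes with no overlap, the 8 that lost the most CPM were Calr, Lrp1, Fth1, Vcan, Map4, Dlk1, mt-Nd2 and Calm3. With overlap between the groups, mt-Co1, Ptn, mt-Nd1 and mt-Cytb were called lower and also lost more CPM than Map4 (Ptn, mt-Co1, mt-Cytb, Col1a1 and Col1a2 were picked after their values were seen). Calr, the calcium-binding chaperone calreticulin, was at 1771.5, 1790.1, 1717.8, 1644.4 and 1658.8 CPM in scramble and 1289.6, 1283.0, 1354.6, 1335.4 and 1295.1 CPM with Kdm5c siRNA (log2 change −0.39, SE 0.02, adjusted p = 6.14e-19). Lrp1, a large endocytic receptor, fell from 2723.5 ± 48.1 to 2349.5 ± 51.5 CPM, and the proteoglycan gene Vcan from 2036.6 ± 115.4 to 1715.7 ± 64.3 CPM. Dlk1, the preadipocyte factor Pref-1 that holds back adipogenesis, fell from 1906.3 ± 108.5 to 1679.7 ± 32.9 CPM (log2 change −0.18, SE 0.04, adjusted p = 4.55e-04), and Fth1, for ferritin heavy chain, from 3098.1 ± 184.7 to 2735.8 ± 65.8 CPM. Neither Dlk1 nor Fth1 was called without scramble replicates 1, 2 and 3 (log2 changes −0.10 and −0.09, adjusted p = 0.137 and 0.283).

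Genes of actin contractility, adhesion and TGF-beta signalling rose together. Of 27 measured contractile genes and targets of the actin-sensing factor SRF, 21 rose and 1, the myosin kinase gene Mylk, fell (median log2 change 0.12, against 0.00 over all genes tested). The lower call of Mylk was lost when any one of 7 libraries was left out, and without scramble replicates 1, 2 and 3, and 4 of these lists' genes that went against the rest, Mylk, Flnc, Cavin1 and Bhlhe40, were picked after their values were seen. Tagln, a marker of contractile cells, was at 38.2, 40.2, 38.5, 36.4 and 35.3 CPM in scramble and 64.8, 57.8, 63.1, 65.6 and 78.5 CPM with Kdm5c siRNA, and Myl9, a myosin light chain, at 39, 43, 39.5, 33.6 and 36.5 and 57, 55, 61.6, 58.6 and 65 CPM (log2 changes 0.81 and 0.64). Among 36 genes of integrins and focal adhesions 22 rose and 2, Flnc and Cavin1, fell (median 0.11), Cavin1 not without the 3 scramble libraries. Itga3, for integrin alpha-3, went from 44.5, 44.4, 43.6, 49.6 and 50.9 CPM to 77.1, 72.4, 72.2, 74.9 and 80.6 CPM (log2 change 0.70, SE 0.04, adjusted p = 1.52e-17). Of 27 genes under YAP and TEAD 15 rose and 1 fell, the last the tissue factor gene F3, and of 28 TGF-beta and activin genes 16 rose and 1, Bhlhe40, fell. Tead2, one of the TEAD factors, rose from 117.9 ± 5.11 to 146.9 ± 4.01 CPM (log2 change 0.32, SE 0.03, adjusted p = 6.14e-13), and Ltbp1, which holds latent TGF-beta in the matrix, from 235.4 ± 6.06 to 320.8 ± 12.6 CPM (log2 change 0.45, SE 0.03, adjusted p = 2.17e-16). The activin subunit gene Inhbb and Ltbp4 rose by 0.46 and 0.44. Without scramble replicates 1, 2 and 3, 17 contractile, 20 integrin, 12 YAP and 11 TGF-beta members were called higher. All 4 lists had a share of higher members of 55.6 to 77.8%, against 18.8% over all genes.

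Matrix genes moved in both directions. Of 21 measured collagens 7 rose and 5 fell, and of 42 matrix glycoproteins 13 rose and 8 fell. The shares were 33.3 and 23.8% for collagens and 31 and 19% for glycoproteins, against 18.8% higher and 16.8% lower over all genes, so that the lower shares were near those of all genes. Col7a1, the anchoring fibril collagen, went from 9.83, 9.85, 10.6, 10.01 and 9.8 CPM to 19, 16.4, 15.7, 17 and 18.1 CPM (log2 change 0.78, SE 0.06, adjusted p = 3.87e-13). Sparc, a collagen-binding protein, rose from 1590.2 ± 70.3 to 1958.5 ± 105.6 CPM (log2 change 0.30), and of 27 genes of collagen processing 10 rose and 1, Adamts2 (picked after its value was seen; not called without scramble replicates 1, 2 and 3), fell. Of 31 matrix proteases and inhibitors 13 rose and 6 fell (41.9 and 19.4%). Plau, the urokinase gene, rose from 13.6 ± 1.04 to 21.2 ± 1.6 CPM (log2 change 0.65, SE 0.06, adjusted p = 1.49e-12) and its receptor gene Plaur by 0.45, and the metalloprotease genes Adam12 and Adamts7 by 0.44 each. Without scramble replicates 1, 2 and 3 the members called lower went from 5 to 1 among collagens, from 8 to 4 among glycoproteins and from 6 to 1 among proteases and inhibitors, while those called higher were 8, 17 and 14. The lower calls in glycoproteins were also 5 without Kdm5c siRNA replicate 5 and without scramble replicate 1 or 3. Those in collagens were 8 without scramble replicates 4 and 5, and 8 by limma with libraries weighted by quality.

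Chemokines and cytokines rose more often than they fell. Among 20 measured chemokines and cytokines 11 were higher and 2, Ccl11 and Cxcl5 (picked after their values were seen), lower (55% and 10%, against 18.8% higher and 16.8% lower over all genes; median 0.21); without scramble replicates 1, 2 and 3 these were 10 and 0. Ccl9, a CC chemokine, went from 16.6, 17.1, 18.7, 15.4 and 15.7 CPM to 25.7, 25.5, 29.2, 24.9 and 28.3 CPM (log2 change 0.68, SE 0.05, adjusted p = 2.83e-13), Cxcl12, which binds CXCR4, from 1728.4 ± 61.8 to 2038.2 ± 37.7 CPM, and Il11 rose by 0.62 on the log2 scale. Of 26 AP-1 and immediate early genes 10 rose (38.5%) and 1, Egr1, fell. These 10 were 4 without scramble replicates 1, 2 and 3 or without Kdm5c siRNA replicate 5, and 6 without scramble replicate 3, 5 or both 4 and 5. Of 18 measured BMP and Id genes 4 rose (22.2%, near the share over all genes) and none fell, at 4 and 0 also without scramble replicates 1, 2 and 3; Id2, an inhibitor of basic helix-loop-helix factors, rose by 0.28. In the Notch pathway, 2 of 12 measured genes rose (16.7%, near it too) and 1 fell. Notch1, a receptor, was at 39.5, 38.8, 38, 32.8 and 33.3 CPM in scramble and 22.3, 21.7, 23.7, 23.7 and 20.4 CPM with Kdm5c siRNA (log2 change −0.70, SE 0.05, adjusted p = 1.08e-14), while the receptor gene Notch3 rose by 0.26, a call lost without scramble replicates 4 and 5. In the insulin and IGF list, 6 of 18 rose and 5 fell (33.3 and 27.8%). Besides Akt1, the IGF-binding protein genes Igfbp4 and Igfbp6 went from 89.5 ± 6.01 to 125.6 ± 5.32 and from 14.9 ± 1.01 to 22.2 ± 0.987 CPM (log2 changes 0.49 and 0.58).

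The 3 genes of the STAT5 route named here were lower. Stat5a, a transcription factor that growth hormone and prolactin activate and that acts in adipogenesis, was at 41.2, 45.1, 43.8, 39 and 40.5 CPM in scramble and 27.1, 27.7, 30.6, 28 and 24.9 CPM with Kdm5c siRNA (log2 change −0.60, SE 0.05, adjusted p = 1.01e-13). Socs2, an inhibitor of this route and one of its targets, was at 15.8, 16.9, 16.3, 13.8 and 13.3 CPM and 7.85, 9.36, 10.8, 8.89 and 8.57 CPM (log2 change −0.74, SE 0.09, adjusted p = 3.76e-08). Cish, another such inhibitor and target, was at 6.54, 8.52, 7.63, 6.63 and 7.3 CPM and 5.04, 5.76, 4.42, 4.39 and 4.57 CPM (log2 change −0.60, SE 0.10, adjusted p = 4.19e-06). In none of the 3 did the groups overlap. No list of this route was tested, and the 3 were put side by side after their values were seen.

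Genes of lipid synthesis, lysosomes and antioxidant defence fell together. Of 27 measured genes of cholesterol synthesis 24 fell and 1, Ggps1, rose, and 14 fell without scramble replicates 1, 2 and 3. Mvd, of the mevalonate route, fell by 0.42 and Msmo1, a sterol oxidase, by 0.34. Of 21 genes of fatty acid synthesis 13 fell and 1, Acsl4, rose, and 11 fell without those replicates. Ggps1, Acsl4 and Slc7a11 below were picked after their values were seen. Of 12 genes under LXR or of sterol export 7 fell; Abcg1, a cholesterol exporter, fell from 6.24 ± 1.25 to 4.09 ± 0.201 CPM (log2 change −0.61, and −0.32 without those replicates), whereas Arl4c rose by 0.52. Of 41 lysosome and autophagy genes 24 fell and 4 rose, and 15 and 3 without them. Lamp1, a lysosomal membrane protein, and Neu1, a sialidase, fell by 0.16 and 0.27, while the autophagy kinase gene Ulk1 rose by 0.22. Of 28 antioxidant genes under NRF2, 15 fell and 3 rose, and 11 and 0 without them. Nqo1, a quinone reductase, was at 46.4, 44.4, 46.7, 43.6 and 44.1 CPM in scramble and 33.8, 34.3, 35.2, 33.3 and 31.3 CPM with Kdm5c siRNA (log2 change −0.42, SE 0.04, adjusted p = 2.92e-10), and Gstm1, a glutathione transferase, fell by 0.33. Of the 3 that rose, Slc7a11, a cystine transporter, rose most, by 0.47, and was not called without the 3 replicates, nor was Ggps1. The 24 cholesterol genes were 88.9% of their list, against 16.8% lower over all genes.

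Regulators and markers of fat cell fate also fell more often than they rose. Of 26 measured adipogenic regulators 8 fell and 2 rose (30.8 and 7.69%, against 16.8% lower and 18.8% higher over all genes). The 8 were 5 without scramble replicate 1 or without replicates 1, 2 and 3, and the 2 were 1 without the latter. Rxra, the partner of PPAR-gamma, was at 207.9, 212.2, 201.8, 205.4 and 200.4 CPM in scramble and 153.2, 156.9, 160.7, 162.4 and 151.0 CPM with Kdm5c siRNA (log2 change −0.39, SE 0.03, adjusted p = 8.5e-13), while Klf5 and Pparg, for PPAR-gamma itself (picked after its value was seen), rose by 0.25 and 0.11, the second not called without the 3 replicates. Of 18 mature adipocyte genes that were measured 8 fell (44.4%) and 2 rose, and 3 and 1 without those replicates. Lpl, the lipoprotein lipase gene, fell by 0.33 and the lipid droplet gene Plin4 by 0.60. Among 19 measured genes of mesenchymal and preadipocyte identity 5 rose and 6 fell (26.3 and 31.6%), and 5 and 2 without the 3 replicates. Ly6a, the progenitor surface antigen Sca-1, was at 68.8, 67.3, 68.6, 67.3 and 63.4 CPM in scramble and 98.9, 88, 100.5, 98.7 and 99.2 CPM with Kdm5c siRNA (log2 change 0.54, SE 0.05, adjusted p = 6.85e-10). Prrx1, a homeobox factor of mesenchyme, was at 750.0, 724.0, 728.8, 690.9 and 709.3 CPM and 586.7, 586.7, 613.5, 583.0 and 572.0 CPM (log2 change −0.29, SE 0.03, adjusted p = 3.03e-11). The 2 markers thus moved in opposite directions, with no overlap between the groups in either. In scramble cells the adipogenic regulators and mature adipocyte genes rose from day −2 to day 0, at medians of 0.51 and 0.55 on the log2 scale. Of 1202 tested genes with a median rise of 0.50 over that time, 22.7% were called lower on day −1 and 11.9% higher. Whether these 2 lists moved apart from other genes of that course was not tested.

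Many calls among growth genes rested on some of the scramble libraries. Of 35 genes of ribosome biogenesis, Myc among them, 20 rose and 1, Fbl (picked after its value was seen), fell, but the groups overlapped in all but 3 of the 20, and without scramble replicates 1, 2 and 3 none was called higher. The 20 were 12 without scramble replicate 1 alone and 13 without replicate 3 alone. Myc, the growth regulator, had a log2 change of 0.40 (adjusted p = 8.11e-04), and 0.18 without the 3 libraries (adjusted p = 0.199). Of 40 mitosis genes 9 rose and 3 fell, and 0 rose and 4 fell without them, while 16 rose without scramble replicates 4 and 5. Of 45 DNA replication genes 3 rose and 6 fell, and 1 and 12 without them; 7 rose without scramble replicate 4, alone or with 5. With all libraries the shares were 6.67% higher and 13.3% lower for DNA replication and 22.5 and 7.5% for mitosis, against 18.8% higher and 16.8% lower over all genes. In the integrated stress response 9 of 31 measured genes rose (29%), 1 without them and 18 without scramble replicates 4 and 5. Among 24 measured G1 cyclins and CDK inhibitors 7 rose and 6 fell (29.2 and 25%), and 5 and 2 without the 3 libraries; Ccnd1 rose by 0.36, or by 0.25 without the 3 libraries (adjusted p = 1.04e-05). Of 26 measured genes of folding in the endoplasmic reticulum 15 rose (57.7%) and 3 fell, 14 and 2 without them, and 6 fell without scramble replicates 4 and 5; Calr fell while the disulfide isomerase genes Pdia3 and Pdia4 rose by 0.13 and 0.15 and the co-chaperone gene Dnajb9 by 0.41. Of 25 p53 targets 11 rose (44%) and 4 fell (16%), and 5 and 2 without the 3 libraries. Of 24 apoptosis regulators 2 rose (1 without the 3 libraries or without Kdm5c siRNA replicate 4, and 4 without Kdm5c siRNA replicate 2) and 9 fell (37.5%), among them Bcl2l2, an anti-apoptotic relative of BCL2, which fell from 29.5 ± 0.99 to 21.8 ± 1.17 CPM (log2 change −0.44, SE 0.04, adjusted p = 4.11e-11).

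Some genes of the respiratory chain fell by small amounts. Of 50 nuclear genes of the respiratory chain 13 fell, 1 rose and 36 were not called, and 9 fell without scramble replicates 1, 2 and 3. The 13 were 26%, against 16.8% lower over all genes and 24.0% among the 2403 genes of the highest level. Cox8a, a subunit of cytochrome oxidase, fell by 0.18. Of 7 measured mRNAs of the mitochondrial genome 4 fell, among them mt-Nd2 by 0.16 and mt-Nd1 by 0.11. The 4 were 3 without the 3 libraries, and 2 without scramble replicate 1 alone, replicate 5 alone or 4 and 5 together, or without Kdm5c siRNA replicate 1. Of 31 genes of glycolysis and hypoxia 3 rose and 6 fell (9.68 and 19.4%, against 18.8 and 16.8% over all genes), and 1 and 3 without the 3 libraries; Pfkp, a phosphofructokinase, fell by 0.31 and Vegfa, a vascular growth factor, rose by 0.24. The Wnt list was divided, with 10 of 29 measured genes higher and 9 lower (34.5 and 31.0%), and 6 and 4 without the 3 libraries. Ccn4, a matricellular Wnt target, rose from 143.2 ± 3.09 to 196.9 ± 9.52 CPM and its relative Ccn5 by 0.30, while the co-receptor gene Lrp5 fell by 0.35. Of 10 measured genes of phosphate, bone and cartilage, besides Phex, Spp1 and Runx2 rose by 0.08 and 0.11 (Runx2 not called without the 3 libraries) and Dmp1, a bone matrix phosphoprotein, was at 10.04, 9.96, 10.4, 8.17 and 8.6 CPM in scramble and 5.35, 5.86, 6.68, 5.85 and 5.31 CPM with Kdm5c siRNA (log2 change −0.70, SE 0.08, adjusted p = 2.24e-09).

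Interferon-stimulated genes varied more between the scramble libraries than any other list did. Averaged over the 59 measured members, scramble replicate 2 lay 0.37 below the scramble mean and replicate 4 lay 0.35 above it on the log2 scale, a range of 0.72. The Kdm5c siRNA libraries lay between 0.05 above and 0.60 below that mean. Of the 59 genes 1 rose and 4 fell (1.69 and 6.78%, against 18.8% higher and 16.8% lower over all genes). The 4 were 3 without scramble replicates 1, 2 and 3, and 2 without replicates 4 and 5. In a fit of the day −1 libraries alone 9 fell, and 7 or 8 by limma. With predicted models, pseudogenes and small RNA genes left out, Oas2, an antiviral enzyme, had the largest spread of all genes of at least 2 CPM. It was at 17.9, 11.2, 18.9, 35.4 and 25.8 CPM in scramble and 18.9, 22.5, 15.1, 13.7 and 8.75 CPM with Kdm5c siRNA, and it was not called (log2 change −0.48, SE 0.37, adjusted p = 0.334). Among the 10 genes with the largest spread, 6 were of this kind: Oas2, Oas3, Oas1a, Ifi44, Rtp4 and Apol9b; the other 4 were Fmod, Ephb6, Agt and Rgcc. Rgcc was called lower (log2 change −0.54, SE 0.16, adjusted p = 0.00646), with −0.03 without scramble replicates 1, 2 and 3. Ifi27l2a, which fell, was at 13.4, 11.8, 19.1, 23.7 and 19.8 CPM in scramble and 8.96, 9.85, 6.68, 8.21 and 5.96 CPM with Kdm5c siRNA (log2 change −1.15, SE 0.19, adjusted p = 2.49e-05). Stat2, a signal transducer of type I interferon, was at 127.0, 103.5, 119.9, 146.3 and 129.7 CPM and 94.5, 98.6, 87.2, 81.1 and 67.4 CPM (log2 change −0.55, SE 0.17, adjusted p = 0.0122), a call lost without scramble replicates 4 and 5, and Ifi27, of the same family as Ifi27l2a, rose from 116.4 ± 8.57 to 157.1 ± 6.74 CPM (log2 change 0.43, SE 0.05, adjusted p = 2.65e-07).

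**Figure D4:**
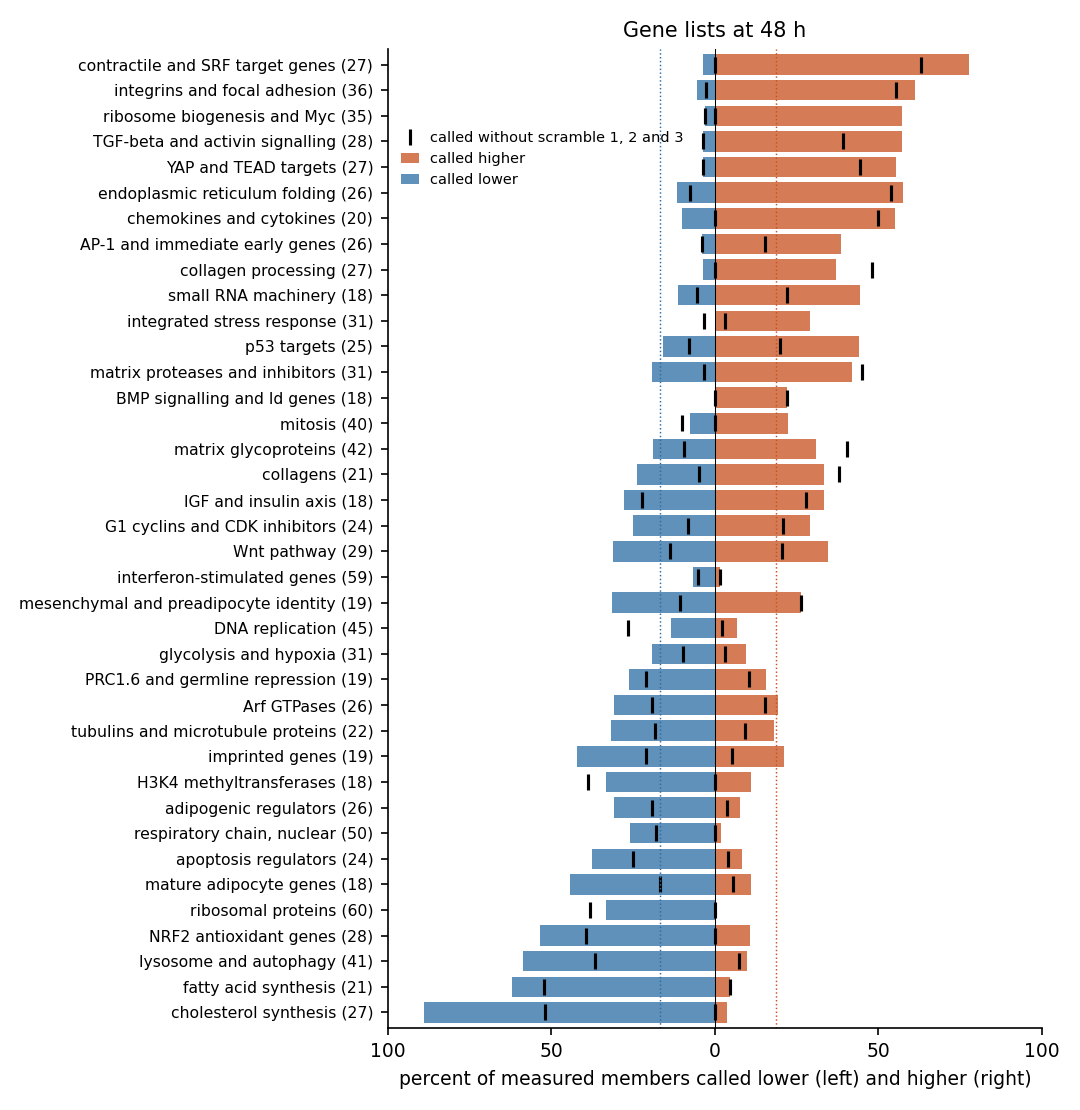
Percent of the measured members of each list with at least 18 measured (number in brackets) called higher (orange, right) and lower (blue, left) on day −1; dotted lines mark the same over all genes tested, 18.8% higher and 16.8% lower, and black ticks the percent without scramble replicates 1, 2 and 3. The contractile list has 77.8% higher and cholesterol synthesis 88.9% lower, and the tick for ribosome biogenesis is at 0 for members called higher.

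Germline genes, which KDM5C represses in neurons, were nearly all outside the count table. Of 30 in the list only 2 were in the count table: Tdrkh, a partner of piRNA-binding proteins, rose from 17.2 ± 0.443 to 20.3 ± 0.76 CPM (log2 change 0.23, SE 0.04, adjusted p = 1.73e-05), and Tdrd7 was not called. Of the other 28, Sycp2 was the highest in scramble, at 1.13 to 2.24 CPM against 0.534 to 1.11 CPM with Kdm5c siRNA, and Dazl and Ddx4, germ cell RNA-binding genes, were at no more than 0.0357 and 0.106 CPM. Sycp2, Dazl and Ddx4 were picked after their values were seen. Of 19 genes of the PRC1.6 complex and germline repression 3 rose and 5 fell (15.8 and 26.3%, against 18.8% higher and 16.8% lower over all genes); E2f6, which brings that complex to DNA, rose from 18.3 ± 0.791 to 22.5 ± 1.08 CPM (log2 change 0.30, SE 0.04, adjusted p = 2.29e-07). Of 18 genes of H3 lysine 4 methyltransferase complexes 2 rose and 6 fell, and 0 and 7 without scramble replicates 1, 2 and 3; 1 rose without scramble replicate 1 or 5 or Kdm5c siRNA replicate 1 or 5. Setd1b, a methyltransferase, was at 106.0, 98.7, 99.9, 98.5 and 99.8 CPM in scramble and 80.6, 80.9, 80.5, 78.2 and 78.8 CPM with Kdm5c siRNA (log2 change −0.33, SE 0.03, adjusted p = 3.97e-12), and Kmt2c and Kmt2d, which methylate enhancers, fell by 0.22 and 0.20. Of 392 tested genes on chromosome X 86 rose (21.9%) and 56 fell (14.3%), against 18.8 and 16.8% over all genes. Among genes of the small RNA route, which siRNA itself uses, 8 of 18 rose (44.4%) and 2 fell, and 4 and 1 without scramble replicates 1, 2 and 3. Dicer1, Ago2 and Tnrc6a rose by 0.19, 0.13 and 0.19, and Tnrc6c, at 86.6, 83.1, 80.5, 80.1 and 78.1 CPM in scramble, was at 59.9, 59.2, 59.3, 59.8 and 53.9 CPM (log2 change −0.48, SE 0.03, adjusted p = 1.12e-16). Of 16 clock genes 4 rose and 4 fell (25% each), with Nr1d1 and Nr1d2, the REV-ERB repressors, higher by 0.35 and 0.28. Of 8 measured caveola genes 4 rose and 1 fell, and 1 and 0 without scramble replicates 1, 2 and 3. Cavin2, a coat protein of caveolae, rose from 17.6 ± 1.1 to 27.2 ± 1.98 CPM (log2 change 0.63, SE 0.06, adjusted p = 2.95e-12).

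The changes at 48 h ran against the course that scramble cells took from 24 to 72 h. In scramble cells 10600 genes (88.2%) were called between day −2 and day 0, 5360 of them rising and 5240 falling, a comparison that uses none of the day −1 libraries. Of the 5360 that rose with time, 1396 were lower with Kdm5c siRNA on day −1 (26%) and 623 higher (11.6%). Of the 5240 that fell with time, 1427 were higher (27.2%) and 468 lower (8.93%). Among 1408 genes that rose over 2-fold with time the shares were 33.1% lower and 8.24% higher, and among 985 that fell over 2-fold they were 3.96% lower and 38.8% higher. Across 12015 genes, Kdm5c left out, the log2 changes of the siRNA and of time had a Pearson r of −0.37 and a Spearman rho of −0.36, as a description, since genes are not independent replicates. With time, the median log2 change in scramble cells was −0.57 for the contractile list, −0.50 for integrins, −0.37 for YAP and 0.13 for TGF-beta. It was 0.43 for cholesterol synthesis, 0.37 for fatty acid synthesis, 0.74 for LXR, 0.82 for lysosomes and −0.30 for NRF2. How far the shares of these lists followed the course was not tested. Without scramble replicates 1, 2 and 3 the pattern across all genes was weaker. When genes are ordered by their change with time and split into 10 equal sets, in the set that fell most the share called higher went from 37.5 to 16.4%, and in the set that rose most the share called lower went from 33.4 to 14.6%.

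**Figure D5:**
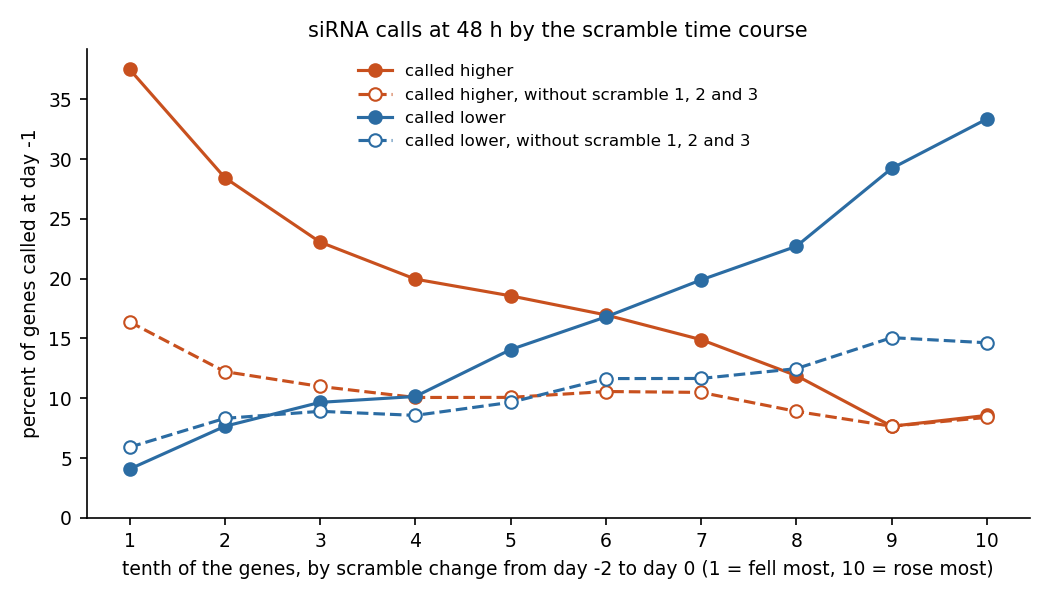
Percent of genes called higher (orange) or lower (blue) with Kdm5c siRNA on day −1 in each of 10 equal sets of the tested genes, ordered by the scramble change from day −2 to day 0; filled points use all libraries and open points leave out scramble replicates 1, 2 and 3. From the first set to the last, the percent higher goes from 37.5 to 8.57 and the percent lower from 4.08 to 33.4, and the open points span a narrower range.

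Some changes at 48 h differed in size from those of the same genes at 24 and 72 h. The difference of the siRNA effects was called in 435 genes between day −1 and day −2 (3.62%) and in 714 between day −1 and day 0 (5.94%); both use the day −1 libraries. The effect was higher on day −1 than on both other days in 23 genes and lower in 29. Of these, Ankrd1 had log2 changes of 0.76, 1.36 and 0.75 on day −2, day −1 and day 0 (adjusted p of the differences = 0.00124 and 0.00725), and Igsf9, an immunoglobulin superfamily gene, 0.23, 0.77 and 0.36. Plau had 0.35, 0.65 and 0.32, and Efnb2, an ephrin ligand of vessels and nerves, 0.03, 0.30 and −0.06 (adjusted p of the differences = 1.83e-04 and 3.54e-06). On the lower side, Stat5a had −0.33, −0.60 and −0.34 and Cish 0.10, −0.60 and −0.16. Lrp8, a receptor for reelin, had −0.25, −0.51 and −0.17 (adjusted p of the differences = 0.00781 and 5.71e-04), and the genes Emb and Fam53b had −0.27 and −0.36 on day −1 against −0.05 and −0.10 on day −2.

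Other genes called on day −1 changed more as time went on, or less. The log2 change of Phex was 0.35 on day −2, 1.30 on day −1 and 1.67 on day 0, and each of the other days differed from day −1 (adjusted p = 6.83e-07 and 0.00946). For Lsp1 it was 0.52, 1.21 and 1.32, and day −1 differed from day −2 (adjusted p = 1.36e-12) but not from day 0 past the threshold (adjusted p = 0.185). Calm3 went from −1.39 and −1.30 to −0.98 and Map4 from −1.21 and −1.14 to −0.84, and in both the difference was called against day 0 (adjusted p = 7.55e-07 and 5e-08) and not against day −2 (adjusted p = 0.229 and 0.256). Kdm5c had the same order, −2.62, −2.41 and −1.99. Calr, at −0.52, −0.39 and −0.08, was lower by less on each later day (adjusted p = 0.00431 and 8.67e-10). Creb5 (0.20, 1.18 and 0.93) and Socs2 (−0.05, −0.74 and −0.74) were called on day −1 and day 0 but not on day −2.

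Genes outside the count table were tested in a fit without a filter on reads recovered from the CPM table. Of 20302 such genes 273 were called, 150 higher and 123 lower. The pseudogene AC154779.1 rose from 0.720 ± 0.0991 to 2.34 ± 0.247 CPM, although reads of pseudogenes may stem from their parent genes. Clca2, of a family of chloride channel regulators, fell from 1.92 ± 0.323 to 0.650 ± 0.0369 CPM, and Tnn, for tenascin-W, from 2.30 ± 0.996 to 1.07 ± 0.291 CPM (SD, n = 5). For mt-Co2 the fitted increase came from 1 library, at 9.13 CPM, and for Rps2-ps5 also from 1, at 13.6 CPM, against scramble means of 0.125 and 0.339 CPM.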

How the data were processed

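RNA of 30 samples of 3T3-L1 cells had been sequenced as strand-specific poly(A) libraries, per the labels' protocols. The submitters' processing notes name STAR 2.7.2a, edgeR 3.26.8 and GRCm38; which counter and annotation were used is not given in the sources used here. As deposited by the authors, the data are raw read counts for the genes of the main table and CPM, scaled to 1000000 reads per library, for 55573 genes. Every gene of the count table has at least 1 CPM in at least 20 libraries. Whole reads were recovered from 100.0% of CPM values (within 0.05 reads) and equalled the counts.

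Groups were taken from the labels. Counts as deposited were fitted with edgeR 4.0.16 in R 4.3.3 (quasi-likelihood, robust, TMM scaling on full library totals), with 6 group means over 30 libraries. P-values were adjusted by Benjamini-Hochberg over all genes and called under 0.05; SE is the log2 fold change over the root of F. limma 3.58.1 and DESeq2 1.42.0 were among 25 alternatives, 10 of which leave out 1 library. The fit was tested on simulated data. Members, lists and naming rules were chosen with earlier results of these data known, and from 3T3-L1 and KDM5C biology.

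Named genes are the 15 of at least 2 CPM with the largest called change each way and no overlap between groups, the 8 with the largest CPM difference each way, the 5 each way that differed most from both other days, the 10 with the largest scramble spread, the 5 largest changes that lost their call without scramble replicates 1, 2 and 3, and up to 4 members per list with the smallest adjusted p (all of a list with 8 or fewer). Of these sets, all but the list members leave out predicted models, pseudogenes and small RNA genes. Of 1421 list entries 1193 were measured. Some genes that these rules would name are not reported here. Samples were not paired by replicate number in the main fit. At this depth 3 reads are 0.089 to 0.119 CPM, and errors of counting alone are not shown.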

Additional observations from a re-analysis of the deposited data

Results flagged for a closer look

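Some libraries stood apart from the 4 others of their group in genes named above, by Dixon's criterion; 16 of 328 groups did (4.88%), where chance gives about 1 in 20. Scramble replicate 1 was the lowest for Flna (3106 CPM, the others at least 3185) and the highest for Setd1b (106.0 CPM) and Nrn1 (60.2 CPM). Scramble replicate 4 was the highest for Tdrd7 (64.1 CPM, the others at most 57.6). Scramble replicate 3 was the highest for Col7a1 (10.6 CPM) and Pfkp (167.2 CPM), and replicate 5 the lowest for Ly6a (63.4 CPM). Kdm5c siRNA replicate 5 was the highest for Cxcl12 (2105 CPM, the others at most 2025), Ccn4 (213.3 CPM) and Cavin1 (826.2 CPM) and the lowest for Tnrc6c (53.9 CPM, the others at least 59.2). Replicate 2 was the lowest for Ly6a (88.0 CPM, the others at least 98.7), Col1a1 (10244 CPM), Col1a2 (12099 CPM) and Cxcl5 (11.7 CPM), and replicate 4 the highest for Bgn (5320 CPM).

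Among Kdm5c and the genes named for their fold change or for a difference between days, 33 had a siRNA effect that differed between day −1 and another day. The differences are by the edgeR contrast of the 2 effects. Genes named for other reasons, such as Calr, are not counted in the 33. Values here are day −1 minus the other day, on the log2 scale. Against day −2, the difference was called in 13 of the 15 genes picked for the largest increase on day −1, a choice that itself favours a larger effect on that day; Glipr1 and Loxl2 were not called. This difference was 0.98 for Creb5, 0.96 for Phex and 0.81 for Olr1. It was 0.70 for Hmgcll1, 0.70 for Tbkbp1, 0.70 for Mcam and 0.69 for Lsp1, 0.67 for Ano1, 0.66 for Actg2, 0.56 for Siglecg, 0.54 for Fjx1 and 0.51 for Lpin3. Against day 0 the rise of Glipr1 was smaller by 0.76, a difference of −0.76, and the differences were −0.45 for Mcam, −0.37 for Phex and −0.32 for Actg2.

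The effect was stronger on day −1 than on both other days in a smaller set. For Ankrd1 the differences were 0.60 against day −2 and 0.61 against day 0, for Igsf9 0.54 and 0.40, for Plau 0.30 and 0.33 and for Efnb2 0.27 and 0.36. On the lower side they were −0.70 and −0.44 for Cish, −0.28 and −0.26 for Stat5a, −0.26 and −0.34 for Lrp8, −0.22 and −0.32 for Emb, and −0.26 and −0.20 for Fam53b. Socs2 differed from day −2 by −0.69.

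Several decreases were smaller by day 0 than on day −1. The difference, day −1 minus day 0, was −0.32 for Calm3, −0.30 for Map4, −0.35 for Gem, −0.21 for Nrn1 and −0.17 for Arf3. It was −0.55 for Mgp, −0.39 for Plekha6, −0.57 for Ppp1r3c and −1.38 for Agt. On day 0 neither Ppp1r3c (log2 change −0.17, adjusted p = 0.201 by the edgeR test) nor Agt (0.22, adjusted p = 0.367) was called. The value of Agt on day 0 was thus not a decrease. For Kdm5c itself the difference was 0.21 against day −2 and −0.42 against day 0, so that the measured loss was smaller on each later day.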

How the results depend on the processing

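Leaving out scramble replicates 1, 2 and 3 together changed the most: 1271 genes were called higher and 1284 lower, against 2254 and 2014. Leaving out 1 library at a time gave 1926 to 2225 higher, 1799 to 1974 lower, 98 to 107 past 1.5-fold higher, 43 to 57 past 1.5-fold lower, and a Kdm5c log2 fold change of −2.44 to −2.35. Genes past 1.5-fold higher were 57 with a filter of 5 CPM in 5 libraries, 39 with limma and a pseudocount of 2, 239 with no filter and 230 on reads recovered from CPM; past 1.5-fold lower they were 23, 159 and 147 under the last 3. Recovered reads, and the fit without robust estimation, were chosen after seeing the data. The scramble coefficient of variation was 0.0344 without replicate 4 and 0.0413 without replicate 3.

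Of 151 called genes named in the text, 124 kept call and direction under all 25 alternatives. The other 27 kept their direction and lost the call under at least 1, most of them only without scramble replicates 1, 2 and 3. Directions reversed only in genes that were not called: Fmod, 0.25 without scramble replicates 1, 2 and 3; without replicates 4 and 5 Oas3, 0.287, Oas1a, 0.0619, Rtp4, 0.0917, Ephb6, −0.00865, and Kdm5b, −0.00916. Leaving out 1 library, Oas3 ranged from −0.45 (without Kdm5c siRNA replicate 2) to 0.0903 (without scramble replicate 4), and Kdm5b from −0.00206 (without scramble replicate 4) to 0.0328 (without scramble replicate 3). The causes were not tested. Of 92 directions of lists with a call, 54 moved by over 1.5 times under at least 1 alternative.

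Replicate numbers are shared between the groups, but deviations of same-numbered libraries correlated at −0.22 to 0.14 and 1 of 5 libraries correlated best with its own number. With a replicate block 2289 genes were called higher and 2020 lower, 98 and 48 past 1.5-fold, 522 in the difference from day −2 and 814 in that from day 0, and Kdm5c had −2.41. Depth limits low genes: among the 2404 genes of at most 7.86 CPM, where 88 of the 148 changes past 1.5-fold lay, the median called size was 0.39 on the log2 scale, against 0.11 in the 2403 highest.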
